A study of Sus scrofa with 2 samples.

Results

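The genes described here are the T cell receptor signalling cascade: the receptor-associated chains, the kinases, adaptors and exchange factors behind them, the phospholipase, calcium, NFAT and NF-kB branches, and the regulators that restrain the signal. They were chosen by symbol, and 39 of 44 listed symbols were found among the 21301 features of the deposited matrices. The symbols LAT, GRAP, PPP3CC, SLA and SLA2 were not matched and are not analysed here. The 39 genes were not picked by a cut on their measured level, but the list was made with earlier results of these data known.

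When the receptor binds its ligand, LCK phosphorylates the tails of the CD3 chains and of the zeta chain CD247, and ZAP70 or its relative SYK docks there. These kinases phosphorylate adaptors such as LCP2, which assemble PLCG1, VAV and Ras activators, and the signal then reaches calcium, NFAT, NF-kB and MAP kinases. In the thymus the cascade acts first behind the pre-TCR, which pairs a newly made beta chain with PTCRA, and again behind the finished receptor, when the strength of the signal decides survival, death or lineage.

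The study measured RNA in single thymocytes of 2 untreated pigs of mixed breed, 22 weeks old, by droplet sequencing of transcript 3′ ends. Cells of both animals were combined before each library, giving 1 library of iNKT thymocytes and 1 of total thymocytes from the same thymi. Invariant natural killer T (iNKT) cells are T cells whose semi-invariant receptor recognises lipids shown by CD1d. The iNKT cells had been selected with magnetic beads, a step the labels do not give for the total thymocytes, so any effect of it cannot be told apart from the kind of cell.

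There was no replicate library, so no test across samples was possible and no difference below has a replicate check. Every interval is a 95% interval for counting error only: an exact Poisson interval for a level, an exact conditional binomial interval for a ratio of levels and a Clopper-Pearson interval for a share of cells. The iNKT library held 54457966 UMIs (unique molecular identifiers, each counting 1 captured transcript) in 12097 barcodes, and the total thymocyte library 29723207 UMIs in 9112 barcodes. After filtering, 11273 iNKT library cells and 8026 total thymocytes remained, with medians of 4210 and 2414.5 UMIs. The libraries shared 41 barcodes, and leaving these out changed none of the counts of genes at least 2-fold higher or lower in the 6 comparisons.

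The comparison covered 6 classes of cells, built from clusters in whose making the 39 genes took no part. The classes were named by likeness to markers listed with earlier results of these data known, by a rule set once the clusters were known. They are 11077 iNKT cells in 12 clusters of the iNKT library, and, within total thymocytes, 319 gamma-delta-like cells (cluster 9), 939 pre-TCR cells (cluster 2), 2756 double-positive cells (cluster 1), 1131 post-selection cells (clusters 3 and 5) and 865 cells of clusters 4 and 6, pooled as the mature pool. Several markers outside the cascade were highest or high in the class they name, and others of the lists were not. ZBTB16, which encodes the lineage factor PLZF, stood at 225 CPM (UMIs of the gene per 1000000 UMIs of the class) in iNKT cells and at 2.07 CPM or less in the other classes. SOX13 stood at 474 CPM in gamma-delta-like cells and at 0.689 CPM or less elsewhere. PTCRA reached 1366 CPM in pre-TCR cells, CD8B 1673 CPM in double-positive cells and TOX2 303 CPM in post-selection cells. CCR7 stood at 501 CPM in the mature pool, against 145 CPM in post-selection cells and 660 CPM in iNKT cells. The 10 mature markers measured summed to 2016 CPM in the mature pool and 3206 CPM in iNKT cells. RAG1, of the double-positive list, stood at 977 CPM in pre-TCR cells and 835 CPM in double-positive cells. Of 9 gamma-delta markers measured, 3 had 0 UMIs in gamma-delta-like cells.

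Some of these classes need care. Cluster 6 had 2 genes of the iNKT marker list, TNFRSF4 and CD40LG, among its 10 leading genes, and only CD40LG of the mature list. Values of the mature pool are therefore followed by those of clusters 4 and 6 where a result turns on them. One cell of the mature pool held 1378 UMIs of S100A8 and S100A12, and the 13 myeloid or dendritic markers measured summed to 555 CPM there, against 60.3 CPM or less in the other classes, with LYZ at 0 in all 6. Leaving that cell out changed none of the counts of genes called. Within the post-selection class, cluster 5 kept the double-positive marker CD1E among its leading genes, and the class had 126 CPM of the erythroid gene HBB, against 17.1 CPM or less in the other 5 classes. The 6 erythroid or stromal markers measured summed to 4.28 CPM in iNKT cells and up to 345 CPM in double-positive cells, and their part in the results was not tested. Interferon-response markers summed to 1071 CPM in iNKT cells and 571 CPM in the mature pool, and the counts of genes called in iNKT cells were the same without their interferon cluster. One iNKT cluster, cluster 13 with 104 cells, was named myeloid or dendritic by the marker rule, with HLA-DRA and SLA-DQB1 among its leading genes. It was kept in the iNKT class for its 185 CPM of ZBTB16.

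Of the 39 genes, 21 differed at least 4-fold between their highest and lowest class, 16 differed less, and 2 had under 100 UMIs in all (CD3G with 11 and GRAP2 with 64). CBL lay just inside this limit at 4.02-fold, with CD3D at 3.999-fold and DGKA at 3.97-fold just outside it. Gamma-delta-like cells held the highest level of 11 genes and iNKT cells that of 8. Pre-TCR cells held the lowest level of 16 genes and iNKT cells that of 9. No share over all genes is given beside the counts of this paragraph, and some rest on ties. The ratio to the next class had an interval spanning 1 for TEC, VAV1, VAV3, GRAP2, NFATC2 and CSK in gamma-delta-like cells. The same held for TXK, NCK2, NFATC1 and PPP3CA, highest in iNKT cells, and VAV1, GRAP2 and SOS1, lowest there. It also held for ZAP70, TEC, NFATC2 and UBASH3A, lowest in pre-TCR cells.

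**Figure D1:**
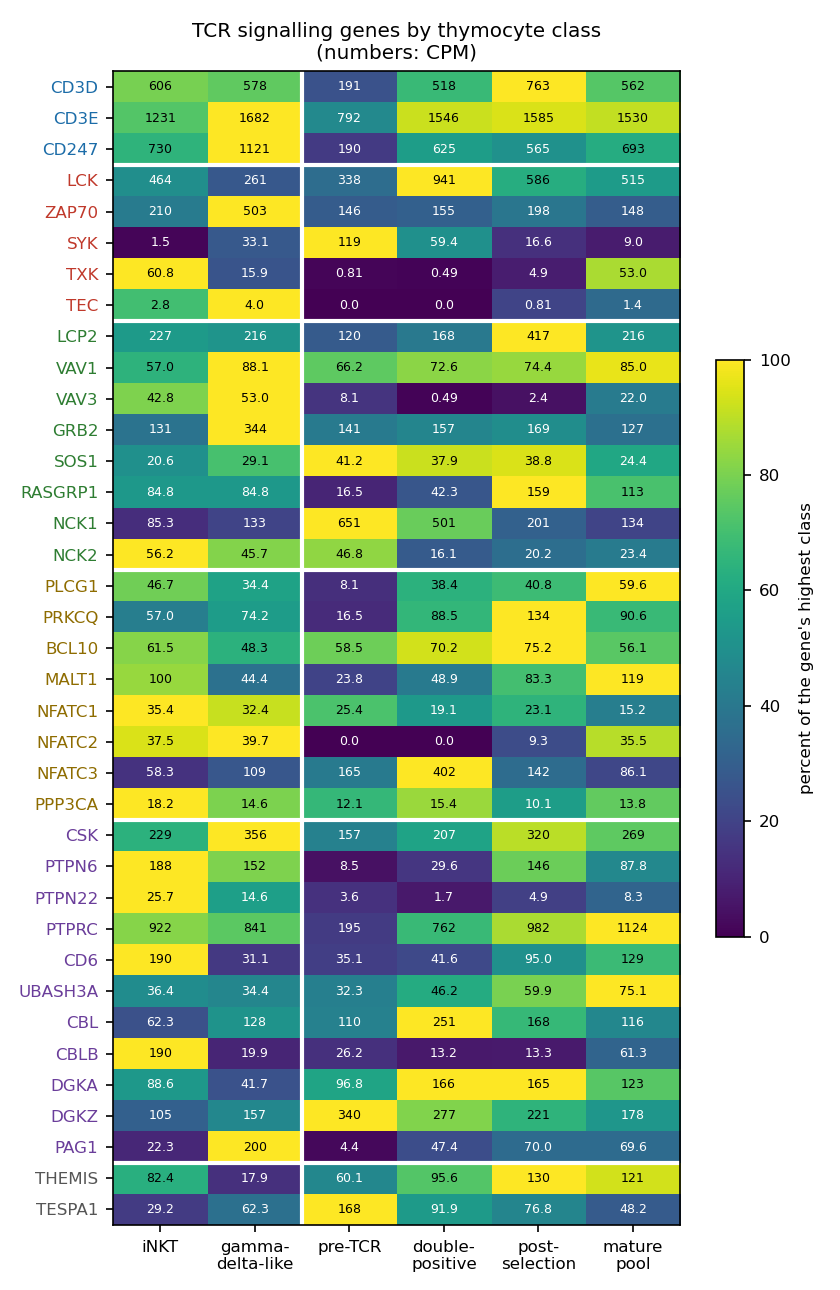
Levels of the 37 genes with at least 100 UMIs (rows, coloured and separated by role: blue receptor complex, red kinases, green adaptors and exchange factors, brown phospholipase, calcium, NFAT and NF-kB branches, purple negative regulators, grey THEMIS and TESPA1) in 6 thymocyte classes (columns). Numbers are CPM and colour is the percent of each gene's highest class: SYK and NCK1 are darkest (lowest) in iNKT cells, while TXK and NFATC2 are dark in pre-TCR and double-positive cells.

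The receptor chains CD3D, CD3E and CD247 were already present at the pre-TCR stage and higher in double-positive cells. CD3D rose further into post-selection cells. CD3E, the chain that pairs with CD3D and CD3G, stood at 1231 CPM in iNKT cells, 1682 CPM in gamma-delta-like cells, and 792, 1546, 1585 and 1530 CPM from the pre-TCR through the double-positive and post-selection stages to the mature pool. CD3D stood at 606 CPM in iNKT cells, 578 CPM in gamma-delta-like cells, and 191, 518, 763 and 562 CPM over the same stages. CD247, the zeta chain, stood at 730.4 CPM in iNKT cells, 1121 CPM in gamma-delta-like cells, and 190.0, 625, 565 and 693 CPM over these stages. Among the 6 classes, pre-TCR cells were lowest for all 3 chains, and gamma-delta-like cells were highest for CD3E and CD247. Single clusters of total thymocytes went further. CD3E reached 1815 CPM in cluster 5 of the post-selection class, and CD247 1323 CPM in cluster 11, an unnamed cluster left out of the classes. In cycling clusters left out of the classes, CD3D, CD3E and CD247 fell to 127, 615 and 113 CPM.

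CD3G was listed with 7 UMIs in iNKT cells, 3 in double-positive cells, 1 in post-selection cells and 0 in the other classes, so its level could not be followed in these matrices. After thinning every cell to 2000 UMIs, at least 1 UMI of a CD3 chain or CD247 was found in 98.7% (98.5 to 98.9) of iNKT cells, 99.7% (98.2 to 100) of gamma-delta-like cells, and 88.3% (85.6 to 90.6), 96.6% (94.5 to 98.0), 99.1% (97.9 to 99.7) and 98.6% (97.5 to 99.3) from pre-TCR cells to the mature pool. Unthinned, these shares were 99.8%, 100%, 90.8%, 95.9%, 99.6% and 99.1%. In cluster 19, a small cluster led by antigen-presentation genes and JCHAIN, the share was 22.5% (10.8 to 38.5) thinned and 32.6% unthinned. This was taken as a background in cells that should lack these chains. T cells or doublets among the 43 cells of this cluster were not told apart. Its cells had a median of 3804 UMIs, and the 6 classes had medians of 1297.5 to 4485 UMIs. Thinning left out 302 iNKT, 4 gamma-delta-like, 266 pre-TCR, 2262 double-positive and 583 post-selection cells, and 67 of the mature pool.

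The clearest change among the kinases was in SYK. SYK stood at 1.49 CPM (1.18 to 1.86) in iNKT cells, 33.1 CPM (24.6 to 43.7) in gamma-delta-like cells, and 119 CPM (105 to 133), 59.4 CPM (52.2 to 67.4), 16.6 CPM (11.9 to 22.5) and 8.95 CPM (5.85 to 13.1) from pre-TCR cells to the mature pool. No 2 neighbours in this order of levels had a ratio whose interval spanned 1. ZAP70, which replaces SYK at the receptor of most T cells, stood at 210.2 CPM in iNKT cells, 503 CPM in gamma-delta-like cells, and 146, 155, 198 and 148 CPM over the same stages.

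Set against ZAP70 within each class, SYK gave 0.709 UMIs (0.559 to 0.887) per 100 ZAP70 UMIs in iNKT cells and 6.58 (4.84 to 8.76) in gamma-delta-like cells. Over the stages the same measure was 81.0 (69.2 to 94.7), 38.4 (33.0 to 44.6), 8.38 (5.94 to 11.5) and 6.03 (3.90 to 8.96). Clusters 4 and 6 of the mature pool gave 6.20 (3.42 to 10.4) and 5.82 (2.86 to 10.7). The iNKT interval thus lay below those of the 5 classes of total thymocytes, and the intervals of the mature pool and gamma-delta-like cells overlapped. SYK is also used by B cells, and cluster 19 had 79.2 CPM of it, while CD79B of the B cell receptor stood at 4.82 CPM or less in all 6 classes.

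**Figure D2:**
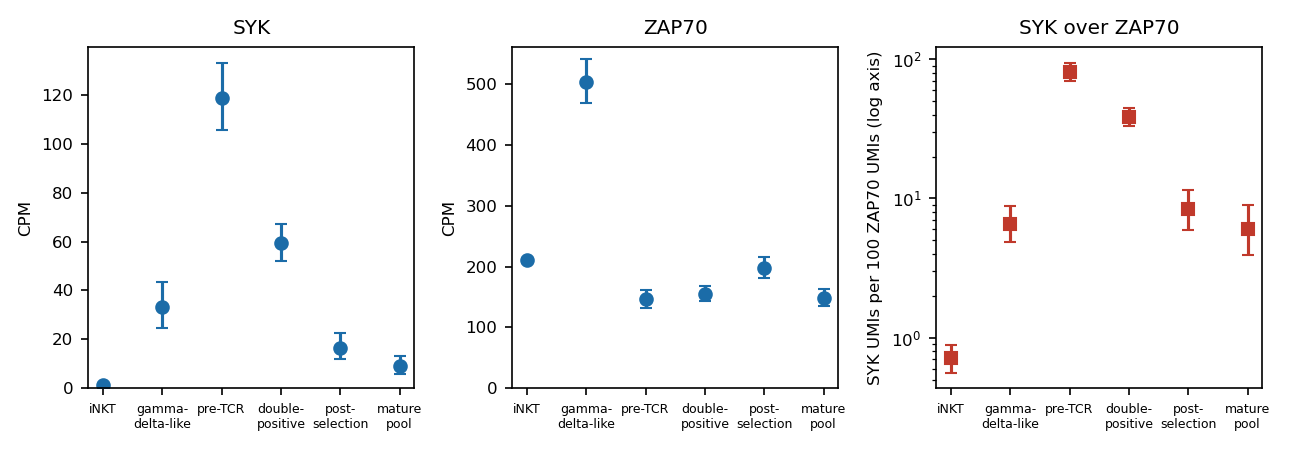
SYK and ZAP70 levels in CPM (left and middle, linear axes from 0) and SYK UMIs per 100 ZAP70 UMIs (right, log axis) in 6 thymocyte classes, with 95% counting intervals as bars. SYK per 100 ZAP70 UMIs runs from 81.0 in pre-TCR cells to 6.03 in the mature pool and is 0.709 in iNKT cells, while ZAP70 is highest in gamma-delta-like cells at 503 CPM.

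LCK, which starts the cascade, stood at 464 CPM in iNKT cells, 261 CPM in gamma-delta-like cells, and 338, 941, 586 and 515 CPM over the stages, so its peak was in double-positive cells. The Tec family kinase TXK showed a different course, with 60.8 CPM (58.7 to 63.0) in iNKT cells, 15.9 CPM (10.2 to 23.6) in gamma-delta-like cells, and 0.807, 0.489, 4.85 and 53.0 CPM over the stages. Pre-TCR and double-positive cells had 2 TXK UMIs each, and the iNKT level and that of the mature pool had a ratio of 1.15 (0.975 to 1.36). TEC stood at 2.77 CPM in iNKT cells and 3.97 CPM in gamma-delta-like cells, from 143 and 6 UMIs. It had 0 UMIs in pre-TCR and double-positive cells, 2 in post-selection cells and 4 in the mature pool.

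Among the adaptors and exchange factors, several reached their highest level at or after selection, and NCK1 did the reverse. LCP2 (SLP-76), the scaffold for PLCG1, VAV and NCK, stood at 227 CPM in iNKT cells, 216 CPM in gamma-delta-like cells, and 120.2, 168, 417 and 216 CPM over the stages. RASGRP1, the Ras activator that binds diacylglycerol, stood at 84.8 CPM both in iNKT and in gamma-delta-like cells, and at 16.5, 42.3, 159 and 113 CPM over the stages. Both genes thus peaked in post-selection cells. NCK1, which links LCP2 to the actin skeleton, stood at 85.3 CPM in iNKT cells, 133 CPM in gamma-delta-like cells, and 651, 501, 201 and 134 CPM over the stages.

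VAV3, a guanine nucleotide exchange factor, was higher in the later classes, with 42.8 CPM in iNKT cells, 53.0 CPM in gamma-delta-like cells, and 8.07, 0.489, 2.43 and 22.0 CPM over the stages. It had 2 UMIs in double-positive cells and 6 in post-selection cells. Its relative VAV1 varied only 1.54-fold, between 57.0 CPM in iNKT cells and 88.1 CPM in gamma-delta-like cells. GRB2, an adaptor that carries SOS to the membrane, ranged from 127 CPM in the mature pool to 344 CPM in gamma-delta-like cells, and SOS1 from 20.6 CPM in iNKT cells to 41.2 CPM in pre-TCR cells. NCK2 ranged from 16.1 CPM in double-positive cells to 56.2 CPM in iNKT cells. GRAP2, which bridges LAT and LCP2, stood at 2.65 CPM or less in each class.

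PLCG1, the phospholipase that makes the calcium-releasing messenger and diacylglycerol, stood at 46.7 CPM in iNKT cells, 34.4 CPM in gamma-delta-like cells, and 8.07, 38.4, 40.8 and 59.6 CPM over the stages. PRKCQ, the protein kinase that leads from diacylglycerol to NF-kB, stood at 57.0 CPM in iNKT cells, 74.2 CPM in gamma-delta-like cells, and 16.5, 88.5, 134 and 90.6 CPM over the stages. Both were lowest in pre-TCR cells. MALT1, the protease that works with BCL10 on the way to NF-kB, stood at 100.3 CPM in iNKT cells, 44.4 CPM in gamma-delta-like cells, and 23.8, 48.9, 83.3 and 119 CPM over the stages, each step higher than the one before. BCL10 varied 1.56-fold, from 48.3 to 75.2 CPM.

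The 3 NFAT factors followed different courses. NFATC2 had 0 UMIs in pre-TCR and in double-positive cells, 9.30 CPM (5.90 to 14.0) in post-selection cells and 35.5 CPM (28.9 to 43.0) in the mature pool. It stood at 37.5 CPM (35.9 to 39.3) in iNKT cells and 39.7 CPM (30.3 to 51.1) in gamma-delta-like cells, levels whose ratios to the mature pool had intervals spanning 1. Against a floor of 3 counts for double-positive cells, NFATC2 was at least 12.7-fold higher in post-selection cells and at least 48.3-fold higher in the mature pool. NFATC3 stood at 58.3 CPM in iNKT cells, 109 CPM in gamma-delta-like cells, and 165, 402, 142 and 86.1 CPM over the stages, with its peak in double-positive cells. NFATC1 ranged from 15.2 CPM in the mature pool to 35.4 CPM in iNKT cells. PPP3CA, a catalytic chain of calcineurin, the phosphatase that activates NFAT, ranged from 10.1 to 18.2 CPM.

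The negative regulators did not move together. PTPN6 (SHP-1), a phosphatase that acts on kinases near the receptor, stood at 188 CPM in iNKT cells, 152 CPM in gamma-delta-like cells, and 8.47, 29.6, 146 and 87.8 CPM over the stages. PTPN22, which works with CSK against LCK, stood at 25.7 CPM in iNKT cells, 14.6 CPM in gamma-delta-like cells, and 3.63, 1.71, 4.85 and 8.26 CPM over the stages. CBLB, a ubiquitin ligase that raises the threshold of activation, stood at 189.6 CPM in iNKT cells, 19.9 CPM in gamma-delta-like cells, and 26.2, 13.2, 13.3 and 61.3 CPM over the stages. Among the 6 classes, all 3 were highest in iNKT cells. Single clusters of total thymocytes stood higher. CBLB reached 246 CPM and PTPN22 113 CPM in cluster 18, a cytotoxic cluster left out of the classes. PTPN6 reached 235 CPM in cluster 5 of the post-selection class.

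CBL, the close relative of CBLB, ran the other way, with 62.3 CPM in iNKT cells, 128 CPM in gamma-delta-like cells, and 109.7, 251, 168 and 116 CPM over the stages. CD6, a surface receptor of the same family as CD5, stood at 189.6 CPM in iNKT cells, 31.1 CPM in gamma-delta-like cells, and 35.1, 41.6, 95.04 and 129 CPM over the stages. PAG1, the membrane anchor of CSK, stood at 22.3 CPM in iNKT cells, 199.997 CPM in gamma-delta-like cells, and 4.44, 47.4, 70.0 and 69.6 CPM over the stages. CBL was thus lowest and CD6 highest in iNKT cells, while PAG1 was highest in gamma-delta-like cells.

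PTPRC (CD45), which both removes the inhibitory phosphate of LCK and can act against it, stood at 922 CPM in iNKT cells, 841 CPM in gamma-delta-like cells, and 195, 762, 982 and 1124 CPM over the stages. CSK, the kinase that adds the inhibitory phosphate to LCK, ranged from 157 CPM in pre-TCR cells to 356 CPM in gamma-delta-like cells. The diacylglycerol kinases, which remove the messenger that RASGRP1 and PRKCQ need, differed from each other. DGKZ ranged from 105 CPM in iNKT cells to 340.5 CPM in pre-TCR cells, and DGKA from 41.7 CPM in gamma-delta-like cells to 166 CPM in double-positive cells. UBASH3A, which suppresses signalling at the receptor, ranged from 32.3 CPM in pre-TCR cells to 75.1 CPM in the mature pool.

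THEMIS, an LCK- and GRB2-associated protein that mice need for positive selection, stood at 82.4 CPM in iNKT cells, 17.9 CPM (11.8 to 26.0) in gamma-delta-like cells, and 60.1, 95.6, 130.2 and 121 CPM over the stages. TESPA1, which mice need for the maturation of thymocytes, stood at 29.2 CPM in iNKT cells, 62.3 CPM in gamma-delta-like cells, and 168, 91.9, 76.8 and 48.2 CPM over the stages. THEMIS was lowest in gamma-delta-like cells, and TESPA1 was lowest in iNKT cells.

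In the step comparisons a gene was counted as higher or lower when its CPM ratio was at least 2-fold, after 0.5 was added to each count, and it had at least 100 UMIs over both classes. More members were at least 2-fold higher than lower in double-positive over pre-TCR cells. Of 31 members with enough UMIs, 12 were at least 2-fold higher in double-positive cells and 1 was lower, where 7.01% of all 6246 genes with enough UMIs were higher and 5.14% lower. The median log2 ratio of these members was 0.51, against 0.03 for all genes. The 12 were PAG1 at 10.7-fold (5.84 to 21.8), PRKCQ at 5.35-fold (3.87 to 7.58), PLCG1 at 4.76-fold (2.98 to 8.003), PTPRC, PTPN6, CD247, LCK, CD3D, RASGRP1, NFATC3, CBL and MALT1, the last 9 between 2.05-fold and 3.90-fold. RASGRP1, MALT1, PTPN6 and CBL fell short of 2-fold at clustering resolutions of 0.5 and 2 and with 15 components, with log2 ratios as low as 0.66, 0.77, 0.81 and 0.97 in these 3 settings. PAG1, PRKCQ, PLCG1, PTPRC, CD247, LCK and CD3D stayed past it in each alternative in which they had enough UMIs.

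NCK2 was the one gene lower in double-positive cells, by 2.90-fold (2.13 to 3.99). SYK at 1.996-fold lower (1.68 to 2.38) and CBLB at 1.99-fold lower (1.36 to 2.90) lay just short of the limit. Double-positive cells were the shallowest class, with a median of 1297.5 UMIs, against 2369 UMIs in pre-TCR cells. With each cell thinned to 2000 UMIs, 5 of 21 members with enough UMIs were higher, among 494 double-positive cells. That count has no share over all genes beside it.

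Between double-positive and post-selection cells, 4 of 30 members were at least 2-fold higher in post-selection cells and 3 were lower, where 5.25% of all genes were higher and 8.01% lower. The members' median log2 ratio was 0.20, against -0.10 for all genes. PTPN6 was 4.95-fold higher (4.02 to 6.13), RASGRP1 3.76-fold (3.13 to 4.52), LCP2 2.48-fold (2.25 to 2.74) and CD6 2.29-fold (1.87 to 2.80). SYK was 3.58-fold lower (2.57 to 5.12), NFATC3 2.83-fold lower (2.52 to 3.19) and NCK1 2.49-fold lower (2.26 to 2.76). The lower count was near its background share. CD3D, CD3E, CD247 and ZAP70 stayed within 2-fold.

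The 2 clusters of the post-selection class differed. Cluster 5, with fewer UMIs per cell, had 6 of 26 members at least 2-fold above cluster 3 and none below, where 4.51% of genes were higher and 1.5% lower. Cluster 5 had 236 CPM of NFATC3 to 94.8 in cluster 3, 235 CPM of PTPN6 to 102, and 629 CPM of LCP2 to 311. NCK1, CBL and DGKZ were 2.05-fold, 2.09-fold and 2.29-fold higher in cluster 5. From cluster 3 alone LCP2 and CD6 lost their calls over double-positive cells, with log2 ratios of 0.89 and 0.98. From cluster 5 alone NCK1 and NFATC3 lost theirs, with log2 ratios of -0.72 and -0.77. RASGRP1, PTPN6 and SYK kept theirs in each of these clusters where they had enough UMIs.

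From post-selection cells to the mature pool, 3 of 32 members were at least 2-fold higher in the mature pool and none was lower, where 3.96% of all genes were higher and 2.62% lower. TXK was 10.9-fold higher (6.08 to 21.6), CBLB 4.59-fold (3.15 to 6.88) and NFATC2 3.81-fold (2.41 to 6.28). The other members lay mostly on the lower side, with a median log2 ratio over all 32 of -0.28, against -0.11 for all genes. LCP2 was 1.93-fold lower (1.75 to 2.13) in the mature pool. With post-selection cells taken from cluster 5 alone, 6 members were lower in the mature pool, a count given without a share over all genes.

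None of 29 members differed 2-fold between clusters 6 and 4 of the mature pool, where 1.69% of genes were higher and 0.777% lower in cluster 6. PAG1 was the most different of these 29, at 48.5 CPM in cluster 6, against 89.8 CPM in cluster 4, a ratio of 0.54 (0.398 to 0.727).

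**Figure D3:**
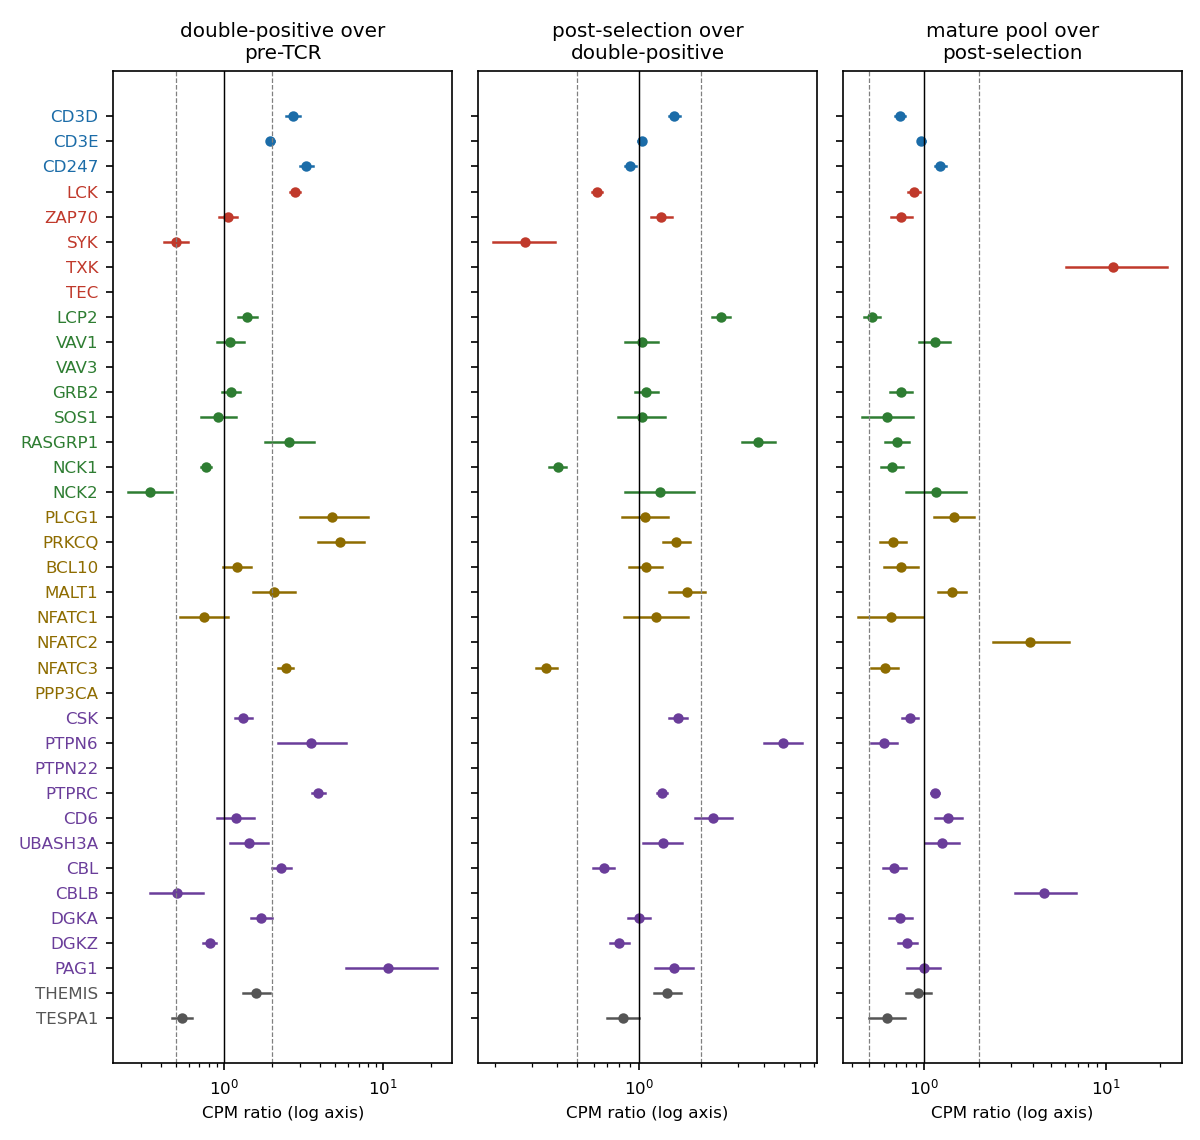
CPM ratios (log axes) of each gene with at least 100 UMIs over both classes and a UMI in each, at 3 steps: double-positive over pre-TCR (left), post-selection over double-positive (middle) and mature pool over post-selection (right). Points are ratios, lines 95% counting intervals, dashed lines 2-fold, and colours the roles of the level plot: the largest ratios are PAG1 at 10.7 on the left, PTPN6 at 4.95 in the middle and TXK at 10.9 on the right.

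Gamma-delta-like cells differed from the mature pool in kinases, adaptors and regulators, with CD3D, CD3E and CD247 within 2-fold. Of 32 members, 4 were at least 2-fold higher in gamma-delta-like cells and 7 lower, where 5.63% of all 5095 genes were higher and 5.42% lower. Against cluster 4 alone 5 of 30 were higher and 8 lower, and against cluster 6 alone 3 of 30 were higher and 6 lower. No share over all genes is given for these single-cluster counts. ZAP70 was higher, with 503 CPM in gamma-delta-like cells, against 163 CPM in cluster 4 and 133 CPM in cluster 6, a ratio to the mature pool of 3.39 (3.01 to 3.83). After thinning, 63.8% (58.2 to 69.1) of gamma-delta-like cells had a ZAP70 UMI, against 25.6% (22.6 to 28.7) of the mature pool and 10.0% (2.79 to 23.7) of cluster 19 (87.8%, 37.2% and 14.0% unthinned).

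PAG1 was 2.88-fold higher (2.40 to 3.45) in gamma-delta-like cells, GRB2 2.72-fold (2.37 to 3.11) and VAV3 2.40-fold (1.71 to 3.39). VAV3 lost its call against cluster 6 alone, with a log2 ratio of 0.80, and at clustering resolutions 0.5 and 2, at 0.95 and 0.90. PAG1 lost its call with marker gates, at 0.98, and GRB2 with at most 5% mitochondrial UMIs, at 0.88. THEMIS was 6.78-fold lower (4.58 to 10.4), with 17.9 CPM in gamma-delta-like cells, against 130.3 CPM in cluster 4 and 112 CPM in cluster 6. CD6 was 4.16-fold lower (3.07 to 5.76), TXK 3.34-fold (2.16 to 5.37), CBLB 3.08-fold (2.09 to 4.71), DGKA 2.94-fold (2.24 to 3.90), MALT1 2.68-fold (2.06 to 3.53) and UBASH3A 2.18-fold (1.60 to 3.01). CBLB fell short of 2-fold without the highest doublet scores, at a log2 ratio of -0.89, and DGKA at clustering resolution 0.5, at -0.84. UBASH3A fell short with at most 5% mitochondrial UMIs, at -0.60, and with 15 components, at -0.85. LCK, at 1.97-fold lower (1.77 to 2.21), lay just short of the limit.

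In iNKT cells 29 of 37 members stood within 2-fold of the mature pool, and those that differed were SYK, the adaptor NCK2, NFATC1 and 5 negative regulators. Of 37 members, 5 were at least 2-fold higher in iNKT cells and 3 lower, where 7.48% of all 9518 genes were higher and 7.82% lower. The lower count was thus near the background share. Against cluster 4 alone 6 of 36 were higher and 2 lower, and against cluster 6 alone 2 were higher and 2 lower. The members' median log2 ratio was -0.23, against -0.15 for all genes. TMM factors, a scaling that shifts these log2 ratios by 0.25, gave 7 higher and 2 lower and a members' median of 0.02. The counts against single clusters and with TMM factors have no share over all genes beside them.

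CBLB was higher, with 189.6 CPM in iNKT cells, against 52.0 CPM in cluster 4 and 71.0 CPM in cluster 6, a ratio to the mature pool of 3.09 (2.67 to 3.61). After thinning, 29.995% (29.1 to 30.9) of iNKT cells had a CBLB UMI, against 11.7% (9.51 to 14.1) of the mature pool and 15% (5.71 to 29.8) of cluster 19 (49.8%, 16.6% and 27.9% unthinned). PTPN22 was 3.12-fold higher (2.08 to 4.88) in iNKT cells, from 24 UMIs in the mature pool, NCK2 2.40-fold (1.89 to 3.101), NFATC1 2.34-fold (1.73 to 3.23) and PTPN6 2.15-fold (1.89 to 2.44). Clusters 4 and 6 had 12.2 and 4.22 CPM of PTPN22 in that order, with NCK2 at 17.6 and 29.5 CPM, NFATC1 at 9.45 and 21.1 CPM, and PTPN6 at 75.6 and 100.5 CPM. Against cluster 6 alone, NCK2, NFATC1 and PTPN6 lost their calls, with log2 ratios of 0.91, 0.72 and 0.90. With at most 5% mitochondrial UMIs PTPN22, NFATC1 and PTPN6 lost theirs, with log2 ratios of 0.85, 0.38 and 0.61. NFATC1 and PTPN6 also lost them with 15 components, at 0.28 and 0.60, and with marker gates, at 0.50 and 0.42.

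SYK was 6.01-fold lower (3.70 to 9.48) in iNKT cells, from 77 UMIs in iNKT cells and 26 in the mature pool. RAG1 stood at 18.9 CPM in the mature pool and 34.4 CPM in gamma-delta-like cells, against 0.194 CPM in iNKT cells. DNTT stood at 10.3, 18.5 and 0.0387 CPM in the same order. Whether transcripts carried over from earlier cells add to SYK in the total thymocyte library was not tested. PAG1 was 3.12-fold lower (2.68 to 3.63), with 22.3 CPM in iNKT cells, against 89.8 CPM in cluster 4 and 48.5 CPM in cluster 6. UBASH3A was 2.06-fold lower (1.79 to 2.38), and its log2 ratio was -0.80 with TMM factors and -0.94 against cluster 4 alone, both short of the limit. CBL lay just short of it, at 1.86-fold lower (1.66 to 2.08). TEC had a ratio of 2.01 (0.768 to 7.48), resting on 4 UMIs in the mature pool, and was not counted once 0.5 was added to each count.

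The contrast between iNKT and gamma-delta-like cells was wider. Of 37 members, 6 were at least 2-fold higher in iNKT cells and 6 lower, and 12.2% of all genes were higher and 12.7% lower, so the members' counts lay near the background. With TMM factors, which shift these log2 ratios by 0.31, 8 were higher and 3 lower, with no share over all genes beside these counts. CBLB was 9.54-fold higher (6.68 to 14.2) in iNKT cells, CD6 6.09-fold (4.58 to 8.30), THEMIS 4.61-fold (3.16 to 6.998), TXK 3.83-fold (2.57 to 5.98), MALT1 2.26-fold (1.78 to 2.92) and DGKA 2.12-fold (1.66 to 2.77).

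SYK was 22.2-fold lower (15.2 to 32.1) in iNKT cells than in gamma-delta-like cells and PAG1 8.98-fold lower (7.88 to 10.2). GRB2 was 2.63-fold lower (2.40 to 2.87), ZAP70 2.39-fold (2.22 to 2.58), TESPA1 2.13-fold (1.71 to 2.62) and CBL 2.06-fold (1.78 to 2.38). ZAP70, TESPA1 and CBL fell short of 2-fold with TMM factors, at log2 ratios of -0.95, -0.79 and -0.74. Of 13 alternatives, TMM factors included, CBL stayed past 2-fold in 5, TESPA1 in 8 and ZAP70 in 11. At clustering resolution 0.5 DGKA and MALT1 fell short as well, at 0.37 and 0.94, and DGKA also at resolution 2, at 0.71. The comparisons with the mature pool and this one share their cells, so their values are given side by side and not as support for each other.

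**Figure D4:**
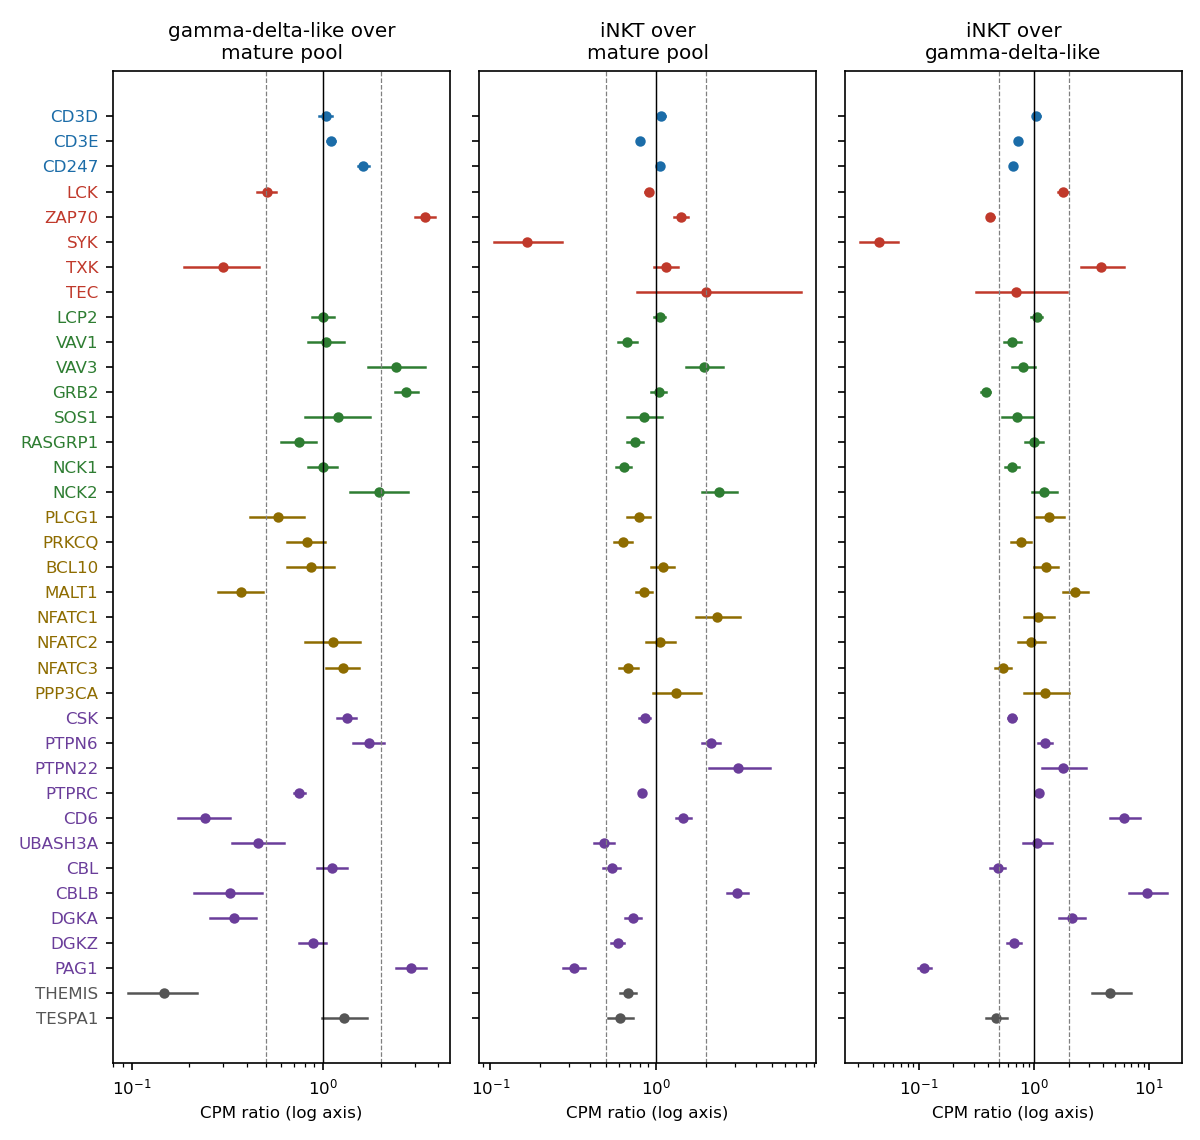
CPM ratios (log axes) of each gene with at least 100 UMIs over both classes: gamma-delta-like over the mature pool (left), iNKT over the mature pool (middle) and iNKT over gamma-delta-like (right). Points are ratios, lines 95% counting intervals, dashed lines 2-fold, and colours the roles of the level plot: SYK is 6.01-fold lower in the middle panel and 22.2-fold lower in the right one, while CBLB is 3.09-fold and 9.54-fold higher there.

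Of 79 other genes of the pathway, 74 were found. In post-selection over double-positive cells, 8 of 53 with enough UMIs were at least 2-fold higher and 5 lower, beside 5.25% and 8.01% of all genes. CD28, the main co-stimulatory receptor, was 12.01-fold higher (8.68 to 17.0), with 123 CPM in post-selection cells and 10.3 CPM in double-positive cells. PRKCA, a conventional protein kinase C, was 3.67-fold higher (2.39 to 5.76). CD5, an inhibitory receptor set by signal strength, was 3.58-fold higher (3.102 to 4.13), but it was also one of the markers used to name post-selection cells. CD2AP, an adaptor bound to the CD2 tail, was 5.38-fold lower (4.49 to 6.48), GAB2 4.98-fold (3.48 to 7.33) and PIK3IP1, an inhibitor of PI3 kinase, 3.20-fold (2.28 to 4.61).

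In iNKT cells over the mature pool, 8 of 71 of these other genes were at least 2-fold higher and 8 lower, beside 7.48% and 7.82% of all genes. CD2AP was 8.43-fold lower (5.98 to 11.7) in iNKT cells and CD2 4.18-fold lower (4.04 to 4.33). LAX1, an adaptor that restrains antigen receptor signals in mice, was 6.36-fold higher (4.73 to 8.77), the adaptor SH3BP2 4.17-fold (2.47 to 7.65) and the adaptor SH2B3 3.03-fold (1.63 to 6.35).

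In the other comparisons, 11 of 52 of these genes were higher and 2 lower in double-positive over pre-TCR cells, where 7.01% of all genes were higher and 5.14% lower. In the mature pool over post-selection cells 4 of 55 were higher and 4 lower, beside 3.96% and 2.62% of all genes. In gamma-delta-like cells over the mature pool 5 of 55 were higher and 7 lower, beside 5.63% and 5.42% of all genes. In iNKT over gamma-delta-like cells 15 of 72 were higher and 14 lower, beside 12.2% and 12.7% of all genes.

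Within the iNKT library the receptor chains CD3D and CD3E, and LCK, varied less than 2-fold between the 12 clusters, while NCK2, PTPN6, VAV3, NFATC1 and PTPN22 varied at least 4-fold. Of 34 members with a median of at least 20 CPM over the clusters, 15 varied less than 2-fold and these 5 at least 4-fold. The counts of members over iNKT clusters, here and below, have no share over all genes beside them. NCK2 had the widest range of the 34, from 13.2 CPM in cluster 11 to 81.8 CPM in cluster 9, 6.17-fold (3.74 to 10.9). VAV3 ranged 4.73-fold, with its lowest level resting on 6 UMIs in cluster 13, and PTPN22 4.49-fold. Cluster 13, named myeloid or dendritic by the marker rule, held the lowest level of 8 of the 34 members, CD3D and VAV3 among them. It was the smallest of the 12 clusters, with 104 cells. VAV3 was next lowest in cluster 7, at 30.7 CPM. CD3D ranged from 455 CPM in cluster 13 to 656 CPM in cluster 9, CD3E from 980 CPM in cluster 10 to 1389 CPM in cluster 1, and LCK from 360.1 CPM in cluster 10 to 519 CPM in cluster 1. CD247 varied more, from 370.1 CPM in cluster 10 to 1087 CPM in cluster 7, a cluster led by MCM replication genes.

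In cluster 6, whose leading genes include CD200, CD69, EGR2, CTLA4 and IRF4, 8 members had their highest level. PTPN6 stood at 433 CPM in cluster 6, 371 CPM in cluster 9 and 354 CPM in cluster 10, and its lowest level was 74.5 CPM in cluster 11, a 5.82-fold range (4.70 to 7.28). LCP2 stood at 463, 389 and 441 CPM in clusters 6, 9 and 10, and its lowest level was 152 CPM in cluster 3. NFATC1 stood at 84.8, 68.4 and 70.5 CPM in these 3 clusters, and its lowest level was 18.8 CPM in cluster 5. CD69 and CD200 were leading genes of all 3 clusters.

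CBLB was highest in the same cluster 6, at 293 CPM, and was 132 CPM in cluster 10 and 88.6 CPM in cluster 11. ZAP70 was highest in cluster 10, at 329 CPM, and lowest in cluster 11, at 127 CPM. RASGRP1 was also highest in cluster 10, at 181 CPM, and lowest in cluster 3, at 62.6 CPM. Of all 39 members, 12 had their lowest level in cluster 10, so this cluster held both ends of the range. SYK did not exceed 7.45 CPM in any of the 12 clusters, and the highest value, in cluster 11, rested on 9 UMIs.

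**Figure D5:**
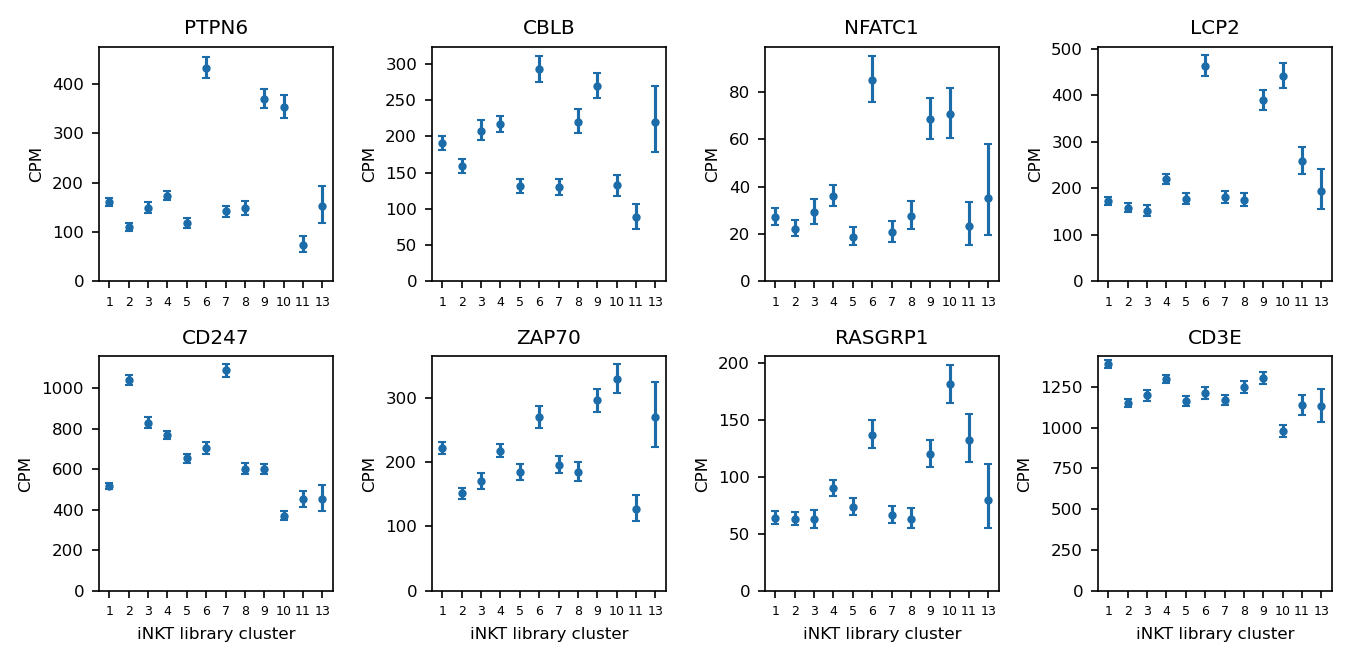
Levels in CPM (linear axes from 0) of 8 members in the 12 iNKT clusters of the iNKT library, with 95% counting intervals. PTPN6, LCP2 and NFATC1 are high together in clusters 6, 9 and 10 (433, 371 and 354 CPM for PTPN6), while CD3E stays between 980 and 1389 CPM.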

How the data were processed

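RNA of single thymocytes was captured with version 3.1 of the 10x 3′ chemistry, per the labels' protocols. The deposited matrices give raw UMI counts for each gene and barcode. Per the submitters' processing notes the tools were Cell Ranger 3.1 and Seurat 3.1. A genome build is not given in the sources used here.

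Each library was filtered (at least 500 genes, at most 10% of UMIs from 13 mitochondrial genes) and clustered on its own: counts per 10000, log scale, 2000 variable genes, 30 principal components, 15 neighbours, Leiden at resolution 1 (scanpy 1.11.5, igraph 0.11.9). The 39 members, other pathway genes that were not markers, and mitochondrial, ribosomal and antigen receptor genes were left out of the variable genes. This gave 20 clusters of total thymocytes and 16 of the iNKT library.

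A cluster took a name when at least 3 of its markers were 2-fold above the median of the other clusters, the markers' median fold was as large and at least 1 stood among its 10 leading genes, with no other class holding more there, iNKT markers aside. The rule was chosen once the clusters were known, so shares and names rest on rebuilt classes. Cycling, interferon-response, cytotoxic, B cell and unnamed clusters of total thymocytes were left out. The iNKT class holds the clusters of its library that the rule did not name cycling and that had at least 50 CPM of ZBTB16. It therefore keeps cluster 7, whose leading genes include MCM genes of DNA replication, and cluster 13, which the rule named myeloid or dendritic. Scrublet's automatic threshold called 2 iNKT library cells and 0 total thymocytes, so it had not worked and doublets remain. MKI67 was not matched, so gates used TOP2A alone.

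UMIs were summed per class and scaled to CPM. Since each group is 1 library, nothing was tested across replicates. The intervals were tested on simulated Poisson counts, so that check covers counting error only. The simulated counts held no spread between cells, animals or libraries. Shares of cells were taken after thinning to 2000 UMIs. Every member found is named by role, in all 6 classes where its range is at least 4-fold with at least 100 UMIs. Levels of CD3D, CD3E, LCK, ZAP70 and LCP2 were given in full after their values were seen. From the other pathway genes, the 3 highest and 3 lowest ratios in 2 comparisons are named. One of these results is not reported here. The members, marker genes and pathway list were chosen with earlier results of these data known. Sequences are not given here. TMM factors came from edgeR 4.0.16.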

Additional observations from a re-analysis of the deposited data

How the results depend on the processing

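No paired analysis was possible because each group is 1 pooled library. Every member called in a comparison kept its direction under each alternative in which it had enough UMIs. In the alternatives in which a member had enough UMIs, calls held for 7 of 13 members in double-positive over pre-TCR cells, 3 of 7 in post-selection over double-positive cells, 3 of 3 in the mature pool over post-selection cells, 5 of 11 in gamma-delta-like cells over the mature pool, 3 of 8 in iNKT cells over the mature pool and 7 of 12 in iNKT over gamma-delta-like cells. The 3 held in iNKT cells over the mature pool were CBLB, SYK and PAG1. The number of members with a 4-fold range was 21, and 19 to 25 under the alternatives.

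Counts of members called moved by more than 1.5 times as follows. The counts in this section have no share over all genes beside them. Fewer members reached 100 UMIs in some settings, and where no other cause is given it was not tested. With at most 5% mitochondrial UMIs, 6 were higher in double-positive over pre-TCR cells, 1 in the mature pool over post-selection cells, 2 in gamma-delta-like cells over the mature pool and 2 in iNKT cells over the mature pool. With cells thinned to 2000 UMIs, 5 were higher in double-positive, 2 in post-selection and 1 in mature pool cells over the stage before, and 3 were lower in iNKT over gamma-delta-like cells. In double-positive over pre-TCR cells only 20 and 21 members, against 31, had enough UMIs in these 2 settings, where CBL in the one and NFATC3 in the other lost the call by their ratio. In double-positive over pre-TCR cells 2 were lower at resolution 0.5, at resolution 2, with 15 components and at a minimum of 20 UMIs, and 3 were lower without the highest doublet scores and with equal weight per cell. Without the highest doublet scores 1 was lower in post-selection over double-positive cells and 6 were lower in the mature pool over post-selection cells, where equal weight per cell gave 1. Leaving those scores out also rebuilt the classes, with 438 post-selection cells, against 1131, and 1416 of the mature pool, against 865. With 15 components 3 were higher in iNKT cells over the mature pool. With marker gates on single cells 0 were lower in double-positive over pre-TCR cells, 2 were higher in gamma-delta-like cells over the mature pool, 1 was lower in iNKT cells over the mature pool and 3 were lower in iNKT over gamma-delta-like cells, and TMM factors also gave 3 there. The post-selection gate held 8 cells and gave no value.

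Chosen after the data were seen, cluster 3 alone gave 2 higher in post-selection over double-positive cells, and cluster 5 alone gave 1 lower there and 6 lower in the mature pool over post-selection cells. Clusters 4 and 6 alone each gave 1 higher over post-selection cells, with 28 members tested, against 32, and cluster 6 alone gave 2 higher in iNKT cells over it. In the mature pool over post-selection cells TXK, NFATC2 and CBLB stayed past 2-fold wherever tested, so each fall from 3 to 1 came from the UMI minimum. CD3G had 11 UMIs and GRAP2 64 over the 6 classes, so neither reached the minimum of 100 UMIs in any comparison.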
